A study of Mus musculus with 16 samples.

Results

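The renin-angiotensin system genes described here are 8 genes chosen by name, Ren1, Agt, Ace, Agtr1a, Agtr1b, Mme, Enpep and Mas1, out of 28971 genes in a table of read counts from whole mouse kidneys. All 8 were present in the table, and 6 passed the filter on low counts. Agtr1b and Mas1 did not pass it, and are given as counts with no test.

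The renin-angiotensin system is a chain of proteolytic steps that controls blood pressure and salt balance. Renin, the product of Ren1, is secreted by juxtaglomerular cells of the afferent arteriole and cuts angiotensinogen (Agt) to angiotensin I. Angiotensin converting enzyme (Ace), on endothelium and on the brush border of the proximal tubule, turns that peptide into angiotensin II, which acts through the type 1 receptors encoded in mice by Agtr1a and Agtr1b. Neprilysin (Mme) and aminopeptidase A (Enpep), both brush border enzymes of the proximal tubule, trim the angiotensins further, and Mas1 encodes a receptor for the shorter peptide angiotensin-(1-7).

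Total RNA was sequenced from kidneys of mice that were Hes1 f/f (both Hes1 alleles floxed) and carried Pax8-rtTA with TRE-Cre, called Hes1 cKO (conditional knockout) here, and from wild type littermates, called control, whose transgenes and floxed alleles the labels do not detail. In this system rtTA is made under the Pax8 promoter, which is active in tubule epithelium, and doxycycline then switches on Cre. All animals, controls included, drank water with doxycycline (1 mg/mL) and 5% sucrose for 1 week from 3 weeks of age, and the age at collection is not stated separately. The table gave 3 Hes1 cKO and 4 control libraries, of 16973931 to 20420422 counts each, numbered here from 1 within each group to tell the columns apart. Whether each library is 1 animal is not stated, so p-values measure the spread between these libraries.

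Hes1, the targeted gene, ranged from 17.2 to 19.8 CPM (read counts scaled to a common library size) in Hes1 cKO and from 42.8 to 67.6 CPM in control. Its difference on the log2 scale was -1.61 (SE 0.16), with an edgeR adjusted p of 0.00357. Hes1 encodes a repressor of transcription that acts downstream of Notch receptors. Xist, expressed from the inactive X chromosome of females, ranged from 333 to 367 CPM in Hes1 cKO 3, control 3 and control 4, and reached at most 0.371 CPM elsewhere, so both groups mix the sexes. Adrenal cortex markers also differed between libraries. Their summed level (10 of 10 listed genes measured) was 8.46 to 1129 CPM in Hes1 cKO and 9.23 to 832 CPM in control. It was highest in Hes1 cKO 3, control 1 and control 2, while Cyp11b2, which makes aldosterone in the adrenal cortex, had no count in Hes1 cKO 2, control 3 and control 4. Results below are read with those libraries in view.

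Hes1 acts on DNA, so the stretches just upstream of annotated gene starts were read for its recognition letters. The 250 bases before the annotated start are shown for the genes at the first steps of the chain and for Enpep, the gene whose libraries separated the groups. They run 5′ to 3′ on the gene's strand, from RefSeq on build GRCm38.p6. The starts are those of RefSeq. In the GENCODE annotation used for the gene positions below, Ren1 begins at 133350510, inside the window printed for it. Capitals mark a TATA box (TATAAA, given strand) and the N box bound by Hes1 (CACNAG, either strand).
Ren1, chr1:133350424-133350673 (+): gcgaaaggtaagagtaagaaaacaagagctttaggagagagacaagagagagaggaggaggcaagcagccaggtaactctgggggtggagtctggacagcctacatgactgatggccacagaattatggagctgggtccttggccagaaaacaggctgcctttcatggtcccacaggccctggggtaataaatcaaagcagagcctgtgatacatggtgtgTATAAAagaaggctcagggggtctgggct
Agt, chr8:124569707-124569956 (-): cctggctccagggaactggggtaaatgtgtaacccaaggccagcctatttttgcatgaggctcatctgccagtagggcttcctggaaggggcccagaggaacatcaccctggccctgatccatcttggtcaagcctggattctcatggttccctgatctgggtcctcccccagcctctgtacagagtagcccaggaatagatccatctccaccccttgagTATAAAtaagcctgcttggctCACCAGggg
Ace, chr11:105967698-105967947 (+): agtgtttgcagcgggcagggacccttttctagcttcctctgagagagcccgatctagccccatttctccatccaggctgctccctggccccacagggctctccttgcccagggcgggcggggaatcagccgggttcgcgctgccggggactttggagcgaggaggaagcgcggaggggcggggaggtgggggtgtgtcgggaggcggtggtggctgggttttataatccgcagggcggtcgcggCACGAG
Enpep, chr3:129332750-129332999 (-): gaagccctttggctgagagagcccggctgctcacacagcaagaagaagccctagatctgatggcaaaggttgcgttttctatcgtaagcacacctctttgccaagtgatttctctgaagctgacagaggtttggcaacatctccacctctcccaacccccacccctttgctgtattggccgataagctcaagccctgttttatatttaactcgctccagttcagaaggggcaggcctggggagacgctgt
The Ren1 window held a TATA box that began 29 bases before the start and no N box. The Agt window held a TATA box 30 bases before the start and 1 N box 9 bases before it. In the Ace window, the first of 2 listed, 1 N box began 6 bases before the start, and the same letters also match the class C site (CACGNG, either strand), another Hes1 motif. Enpep had none of these motifs in the window. Of the windows not shown, that of Agtr1b held a TATA box 31 bases before the start, and the third of those listed for Mme held 3 N boxes. Of 32851 promoter windows of that length, 36.7% held an N box, 23.5% a class C site and 7.59% a TATA box, so these matches are common and describe letters only. The letters TGGGAA (either strand), the core bound by the Notch partner RBPJ, occur in 21.6% of windows and in none of the windows of these genes. Windows were found for 7 of the 8 genes. Agtr1a was not matched.

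**Figure D1:**
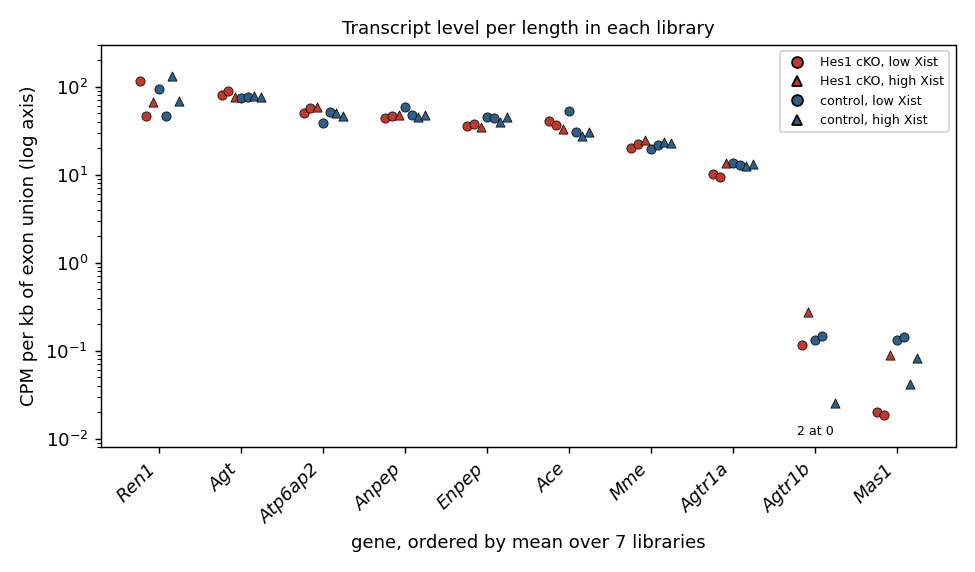
Level per kilobase of exon of the genes chosen by name, and of Atp6ap2 and Anpep, in each of the 7 libraries (vertical axis: CPM per kb, log axis; horizontal axis: genes ordered by their mean; red: Hes1 cKO, blue: control; triangles: high Xist). Ren1 and Agt lead the order with means of 81.4 and 78.8 CPM per kb, and Agtr1b (2 libraries at 0) and Mas1 lie far below the rest.

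To compare the genes with each other, CPM were divided by the length of each gene's exons. Over the 7 libraries Ren1 averaged 81.4 ± 33.4 CPM per kb (SD, n = 7) and Agt 78.8 ± 5.40 CPM per kb. The ranges of these 2 genes overlapped, from 46.2 to 130 for Ren1 and from 74.0 to 90.0 CPM per kb for Agt, so their order is not fixed by the data. Among the genes chosen by name, Enpep (40.4 ± 4.53 CPM per kb) and Ace (36.0 ± 8.83 CPM per kb) came next, overlapping each other and lying below Agt in every library. Mme followed at 22.1 ± 1.67 CPM per kb and Agtr1a at 12.2 ± 1.67 CPM per kb, each below its upper neighbour in all 7 libraries. With the longest transcript as the length, Mme was at 31.8 CPM per kb (28.4 to 35.2) and overlapped Ace (29.4 to 57.4). Agtr1b averaged 0.0994 and Mas1 0.0753 CPM per kb, so that of the 2 type 1 receptor genes Agtr1a made up nearly all of the transcript measured.

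In the comparison of Hes1 cKO with control, none of the 6 tested genes was called by edgeR's quasi-likelihood test (adjusted p under 0.05 over 15615 tested genes), where 0.339% of all tested genes were called. Limma-voom (0.327% of all tested genes called) and DESeq2 (0.833%) also called 0 of the 6. At an unadjusted p under 0.05 there was 1, Enpep, against a share of 5.95% of all tested genes. Of the 6 log2 fold changes 3 were positive and 3 negative, with a median of -0.055 and a median size of 0.13, and over all tested genes these were -0.0064 and 0.11. The calls stayed at 0 in each of the 18 alternative analyses, which include leaving out each library and leaving out the 3 libraries with the highest adrenal markers. In counts simulated with the spread of these libraries, 95.8% of genes changed by 2 on the log2 scale were called. Of those changed by 1 it was 70.1%, and of those changed by 0.5 it was 9.55%. There 200 genes drawn at random were changed, where the data gave 53 calls. These shares are averages over genes and not values for the 6 genes, whose SEs ran from 0.08 (Agt) to 0.37 (Ren1). In whole kidney, fewer cells of a type and less RNA per cell cannot be told apart.

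**Figure D2:**
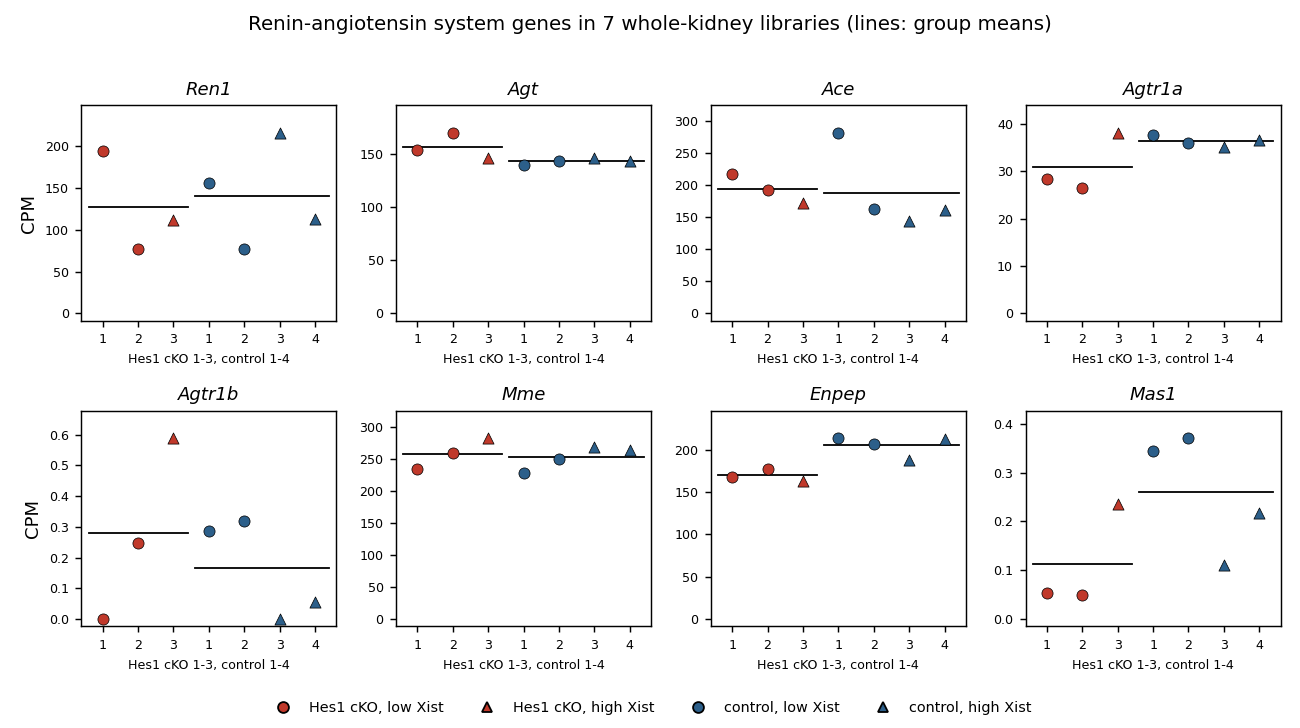
CPM of the 8 genes in each library (one panel per gene with its own axis from 0; horizontal axis: Hes1 cKO 1 to 3, then control 1 to 4; lines: group means; triangles: libraries with high Xist). Enpep is the 1 gene whose 3 Hes1 cKO values (163.7 to 178 CPM) all lie below its 4 control values (188 to 214 CPM), and Ren1 spreads widely in both groups.

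**Figure D3:**
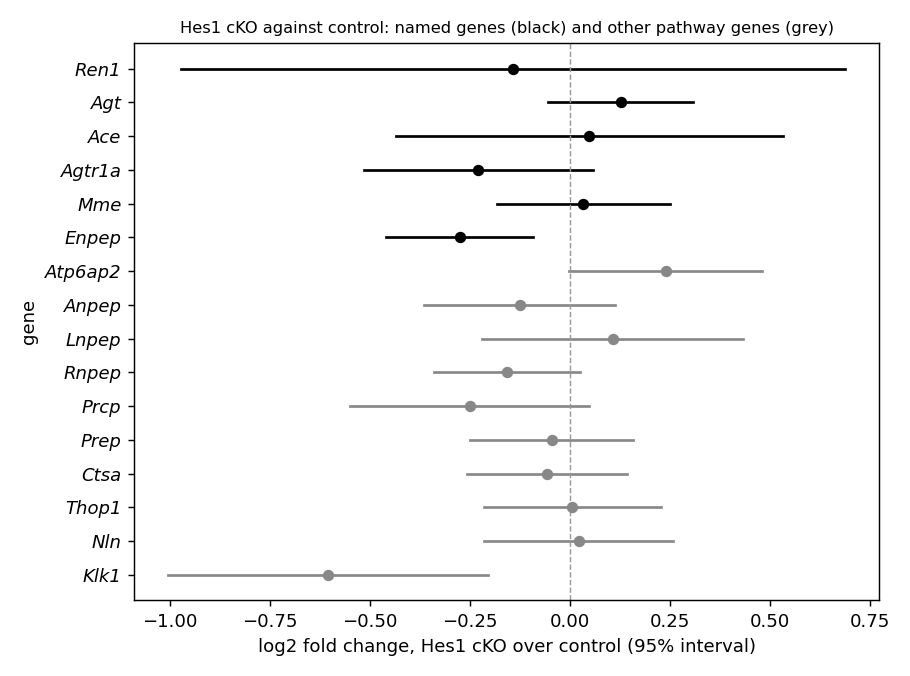
Log2 fold change of Hes1 cKO over control with its 95% interval, for the 6 tested genes (black) and 10 other genes of the pathway (grey). Ren1 has the widest interval, from -0.97 to 0.69, and the intervals of Enpep (-0.46 to -0.09) and Klk1 (-1.01 to -0.20) lie below 0, although neither gene was called after adjustment.

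Ren1 (ENSMUSG00000070645, chr1:133350510-133360325 on GRCm38, + strand) encodes the enzyme that starts the chain. It was at 194, 76.6 and 111 CPM in Hes1 cKO 1, 2 and 3, and at 156, 77.2, 216 and 113 CPM in controls 1, 2, 3 and 4. Each group thus held both low and high libraries, and the groups overlapped throughout. The means were 127 ± 60.5 CPM (SD, n = 3) and 141 ± 59.8 CPM (SD, n = 4). The log2 fold change was -0.14 (SE 0.37, 95% interval -0.97 to 0.69, edgeR adjusted p 0.992), and the exact two-sided permutation test over 35 arrangements of the group labels gave p = 0.714. As a fold, that interval runs from 0.509 to 1.61. The sign rested on single libraries: it was -0.59 without Hes1 cKO 1, 0.12 without Hes1 cKO 2 and 0.14 without control 3.

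Ren1 was the most variable of the 6 tested genes. Among the 4 controls its coefficient of variation was 42.6%, against a median of 9.22% over 1419 genes with a mean level within 0.5 log2 units of it, which places it at percentile 98.4 of those genes. The 3 high-Xist libraries were at 111 (Hes1 cKO 3), 216 (control 3) and 113 CPM (control 4), and the 4 low-Xist libraries ranged from 76.6 to 194 CPM. The 3 libraries highest in adrenal markers were at 111 (Hes1 cKO 3), 156 (control 1) and 77.2 CPM (control 2). In control 3, the highest for Ren1, Cyp11b1 and Cyp11b2, enzymes of adrenal steroid synthesis, had no count. The part of sex and of adrenal RNA in the spread of Ren1 was not tested. With trends over gene GC content and length taken out, Ren1 still spanned a 2.63-fold range, against 2.82-fold before. Some mouse strains carry a second, near-identical renin gene. The labels give no strain, so the Ren1 count can include reads of that copy.

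**Figure D4:**
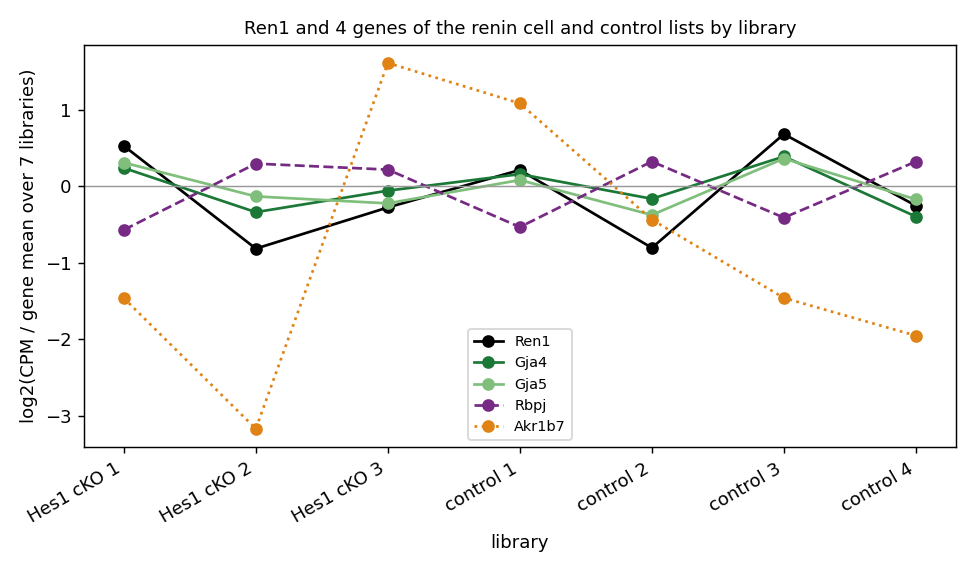
Log2 ratio of CPM to the gene's own mean over the 7 libraries (vertical axis) for Ren1, Gja4, Gja5, Rbpj and Akr1b7 in each library (horizontal axis). Ren1, Gja4 and Gja5 peak in Hes1 cKO 1, control 1 and control 3, where Rbpj is lowest, while Akr1b7 peaks in Hes1 cKO 3 and control 1.

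Genes of the juxtaglomerular region were read beside Ren1. Gja5, which encodes the gap junction protein connexin 40 needed for normal control of renin release, measured 10.2, 7.52 and 7.06 CPM in the Hes1 cKO libraries and 8.72, 6.35, 10.6 and 7.31 CPM in the controls. Its 3 highest values fell in the same libraries as those of Ren1 (Hes1 cKO 1, control 1 and control 3). Gja4 (connexin 37), singled out after its values were seen, had its 3 highest values there too, at 13.6, 12.9 and 15.1 CPM. Rbpj, the DNA-binding partner of Notch receptors that renin cells need, was lowest in the same 3 libraries. It was at 18.7, 19.2 and 20.9 CPM there and at 32.2 to 34.7 CPM in the other 4. This split was not particular to Rbpj. Pde3b (23.7, 19.4 and 26.8 CPM) and Slc12a2 (64.3, 68.4 and 64.9 CPM), singled out after their values were seen, were also lowest in those 3 libraries. What these libraries share was not tested. The GC and length correction left the 3 at 19.0 to 21.6 CPM for Rbpj and the other 4 at 31.6 to 34.1 CPM.

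Of 12 renin cell and arteriolar muscle genes 11 were tested, none was called by edgeR, limma-voom or DESeq2, and none had an unadjusted edgeR p under 0.05. Their median log2 fold change was 0.22, with 10 above 0 and 1 below. Over all tested genes the median was -0.0064, with 7564 above 0 and 8051 below. The Hes1 cKO libraries differed among themselves in Acta2 and Myh11, singled out after their values were seen. Acta2 was at 74.9, 31.8 and 52.5 CPM in Hes1 cKO 1, 2 and 3, against 40.7 to 53.2 CPM in control. Myh11 was at 93.3, 47.6 and 71.6 CPM, against 49.8 to 62.7 CPM in control. The 8 macula densa and renin control genes, all tested, had a median of -0.013, again with 0 called by each of the 3 tests and 0 at an unadjusted p under 0.05. Nos1 and Ptgs2, enzymes of the macula densa that signal to renin cells, gave log2 fold changes of 0.10 (SE 0.26) and -0.05 (SE 0.26). Akr1b7, made by renin cells but also by the adrenal cortex, ranged from 0.940 to 25.8 CPM. Its highest values were in Hes1 cKO 3 and control 1, the libraries with the most adrenal signal, and Ren1 was at 111 and 156 CPM there.

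Agt (ENSMUSG00000031980, chr8:124556534-124569706, - strand) encodes angiotensinogen, the substrate of renin, which in kidney is made mainly by the proximal tubule. It was at 153, 170.1 and 146 CPM in Hes1 cKO 1, 2 and 3, and at 140, 143, 147 and 144 CPM in controls 1, 2, 3 and 4. The 2 highest values were Hes1 cKO libraries, but Hes1 cKO 3 lay within the control range. The controls were tightly grouped, with a coefficient of variation of 1.91%, lower than that of almost all genes of like level (percentile 0.618 of 1295). The log2 fold change was 0.13 (SE 0.08, 95% interval -0.054 to 0.31, edgeR adjusted p 0.938), and the exact permutation p was 0.0571.

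Ace (ENSMUSG00000020681, chr11:105967945-105989964, + strand) was at 217, 192 and 173 CPM in Hes1 cKO 1, 2 and 3, and at 282, 162, 144 and 162 CPM in controls 1, 2, 3 and 4. Control 1 stood above all other libraries, and the 3 Hes1 cKO values lay between it and the other controls. The log2 fold change was 0.05 (SE 0.21, 95% interval -0.43 to 0.53, edgeR adjusted p 0.995), with an exact permutation p of 0.771. Without control 1 it was 0.31 (edgeR adjusted p 0.642), and without the 3 libraries with the highest adrenal markers, control 1 among them, 0.42 (edgeR adjusted p 0.152). Among the 4 low-Xist libraries alone it was -0.12. A stretch of 295 bases of Ace exons overlaps the antisense gene Gm11651, and without a stated strand setting reads there cannot be told apart.

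Mme (ENSMUSG00000027820, chr3:63241537-63386030, + strand) was even across the libraries. It was at 234, 260 and 283 CPM in Hes1 cKO 1, 2 and 3, and at 228, 251, 268 and 265 CPM in controls 1, 2, 3 and 4. The values of the groups interleaved. The log2 fold change was 0.03 (SE 0.10, 95% interval -0.18 to 0.25, edgeR adjusted p 0.992), with an exact permutation p of 0.771.

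Enpep (ENSMUSG00000028024, chr3:129269175-129332720, - strand) was the gene with the clearest separation. It was at 168, 178 and 163.7 CPM in Hes1 cKO 1, 2 and 3, and at 214, 207, 188 and 213 CPM in controls 1, 2, 3 and 4. The groups did not overlap, with Hes1 cKO below control, as was the case for 3.29% of all tested genes. Of the 6 genes it was the 1 without overlap in either direction (7.01% of all tested genes), and none lay wholly above control (3.71%). The means were 169.7 ± 7.28 CPM (SD, n = 3) and 205 ± 11.9 CPM (SD, n = 4), and the log2 fold change was -0.28 (SE 0.08, 95% interval -0.46 to -0.09). The unadjusted edgeR p was 0.00783 and the adjusted p 0.546, so the gene was not called, and the exact permutation test gave p = 0.0571. In the 18 alternatives the log2 fold change was negative each time, from -0.32 to -0.21, and the lowest adjusted p was 0.216, from DESeq2. As the groups did not overlap, fits that left out libraries had almost no room for another sign. The other fits reuse the same libraries, so the steady sign is not further evidence. The promoter window of Enpep, printed above, holds none of the Hes1 motifs searched. That describes the letters of this window only, and binding of Hes1 was not tested.

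Enpep, Ace, Mme and Agt are all made in the proximal tubule, so its markers were read beside them. The summed level of the 10 listed markers was 9684 to 10524 CPM in Hes1 cKO and 10406 to 12863 CPM in control. None of the 10 was called by edgeR, limma-voom or DESeq2, none had an unadjusted edgeR p under 0.05, and their median log2 fold change was -0.16, with 8 below 0. The part of these markers in the Enpep values was not tested. Slc7a13, singled out after its values were seen, is a transporter of the last proximal segment, and it was at 14.2 to 25.7 CPM in the 3 high-Xist libraries and at 198 to 404 CPM in the other 4.

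Agtr1a (ENSMUSG00000049115, chr13:30336441-30382867, + strand), the main type 1 receptor gene of the mouse kidney, was at 28.3, 26.5 and 38.1 CPM in Hes1 cKO 1, 2 and 3, and at 37.5, 35.8, 35.1 and 36.6 CPM in controls 1, 2, 3 and 4. Hes1 cKO 1 and 2 were below every control, while Hes1 cKO 3 was the highest library of all. The log2 fold change was -0.23 (SE 0.13, 95% interval -0.52 to 0.057, edgeR adjusted p 0.927), with an exact permutation p of 0.200. Hes1 cKO 3 differed from the other 2 in both Xist and adrenal markers. Without it the log2 fold change was -0.41 (edgeR adjusted p 0.341), without the 3 libraries highest in adrenal markers -0.39 (0.188) and among low-Xist libraries -0.42 (0.586). Each of these fits left out Hes1 cKO 3 and kept Hes1 cKO 1 and 2, so their likeness is not further evidence. Without Hes1 cKO 2 the log2 fold change was -0.13. The high-Xist controls 3 and 4 were at 35.1 and 36.6 CPM, and controls 1 and 2, high in adrenal markers, at 37.5 and 35.8 CPM. The part of sex and of adrenal RNA in the Agtr1a values was not tested.

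Agtr1b (ENSMUSG00000054988, chr3:20314473-20367177, - strand) encodes the second type 1 receptor, which in mice is known from the adrenal gland and pituitary. It had 0, 5 and 10 counts in Hes1 cKO 1, 2 and 3, and 5, 6, 0 and 1 counts in control 1, 2, 3 and 4. The 2 libraries at 0 allow a level of up to 0.159 CPM in Hes1 cKO 1 and 0.165 CPM in control 3, taking 3 counts as the limit of a count of 0. The most counts were in Hes1 cKO 3, the library highest in adrenal markers, and control 1 and control 2, the next highest, had 5 and 6. Hes1 cKO 2 also had 5 counts, with 1 count of Cyp11b1. The part of adrenal RNA was not tested. The longest transcripts of Agtr1a and Agtr1b are 75.1% identical over 2000 aligned bases, with no shared exact run longer than 66 bases, shorter than the 150-base reads.

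Mas1 (ENSMUSG00000068037, chr17:12841079-12868143, - strand) was close to the limit of detection. It had 1, 1 and 4 counts in Hes1 cKO 1, 2 and 3, and 6, 7, 2 and 4 counts in control 1, 2, 3 and 4. The groups overlapped, and a difference was not detectable at this depth. The gene overlaps the transcribed region of the antisense gene Airn, with no shared exonic bases.

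The rest of the pathway was read from a list of 17 other genes, of which 16 were in the table and 11 were tested. None was called by edgeR (0.339% of all tested genes) or limma-voom (0.327%). DESeq2 called 1 (0.833% of all tested genes). The same gene, Klk1, was the 1 with an unadjusted edgeR p under 0.05 (5.95% of all tested genes). The median log2 fold change was -0.058, with 4 above 0 and 7 below. Klk1 encodes tissue kallikrein, a kinin-releasing protease of the connecting tubule. It was at 725, 761 and 725 CPM in Hes1 cKO 1, 2 and 3, and at 793, 1284, 1402 and 1003 CPM in controls 1, 2, 3 and 4. All 3 Hes1 cKO libraries lay below all 4 controls, as for 3.29% of all tested genes, and the controls spread more widely. The log2 difference was -0.60 (SE 0.18; edgeR adjusted p 0.538, DESeq2 adjusted p 0.0432), with an exact permutation p of 0.0571. Klk1 belongs to a large family of near-identical genes, so its count is uncertain.

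Aminopeptidase N (Anpep), which acts after Enpep in the chain, gave a log2 difference of -0.13 (SE 0.11, edgeR adjusted p 0.959). Atp6ap2, the prorenin receptor and an accessory protein of the proton pump, gave 0.24 (SE 0.11, edgeR adjusted p 0.841). It measured 133, 148 and 152 CPM in the Hes1 cKO libraries and 102, 133, 131 and 123 CPM in the controls. Of its Hes1 cKO values, 2 were above all controls and the third lay within their range. Prcp, a carboxypeptidase that can cut angiotensin II, gave -0.25 (SE 0.13) and Rnpep, aminopeptidase B, -0.16 (SE 0.08). Rnpep was the other gene of this list whose groups did not overlap, with 42.4 to 43.1 CPM in Hes1 cKO and 43.7 to 50.8 CPM in control. These 2 of 11 genes, both with Hes1 cKO below, are 18.2% of the list, where 7.01% of all tested genes did not overlap in either direction and 3.29% in that one. Lnpep, the insulin-regulated aminopeptidase that binds angiotensin IV, gave 0.11 (SE 0.15) and Nln, neurolysin, 0.02 (SE 0.11), and neither was called. The type 2 receptor gene Agtr2 was below the filter, with 5, 3 and 9 counts in Hes1 cKO and 21, 10, 3 and 0 counts in control. Its 3 highest counts came from control 1, control 2 and Hes1 cKO 3, the libraries highest in adrenal markers.

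Across the 7 libraries the genes whose log2 levels were most like each tested gene were found among 14143 genes with a mean of at least 1 CPM. Closest to Ren1 were Timm17b (Pearson correlation 0.986) and Car7 (0.970), to Agt were Smad1 (0.985) and Gltscr1 (0.968), and to Ace were Ttbk1 (0.986) and Csf1r (0.985). Fermt1 (0.976) was among the closest to Agtr1a, Mme was closest to Pm20d2 (0.991) and Ncoa7 (0.990), and Enpep to Zcchc9 (0.982) and Dis3l (0.966). With 7 libraries that share groups and so many genes searched, these values describe the libraries and carry no test.

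**Figure D5:**
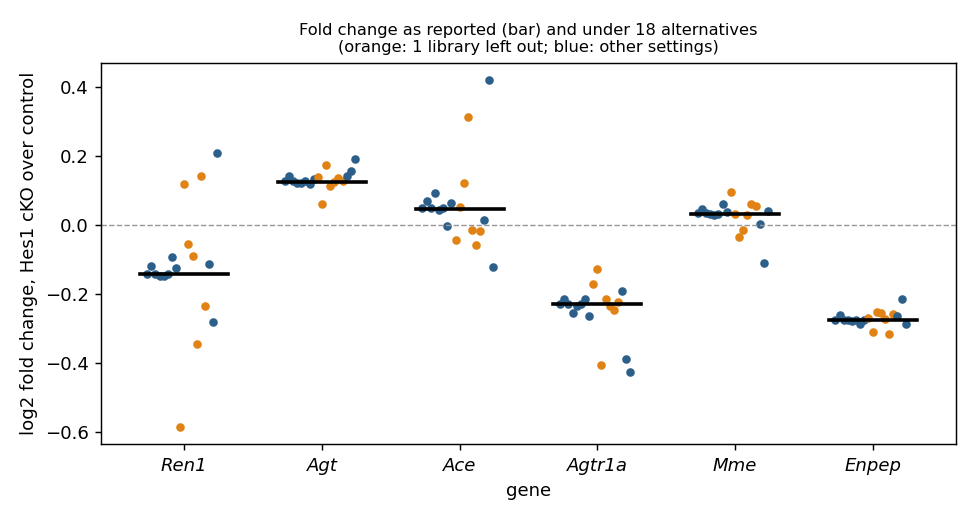
Log2 fold change of the 6 tested genes (horizontal axis) as reported (black bar) and under 18 alternatives (orange: 1 library left out, blue: other settings). Agt stays above 0 and Agtr1a and Enpep below 0 in all 18, while Ren1 (-0.59 to 0.21), Ace (-0.12 to 0.42) and Mme (-0.11 to 0.10) cross it.

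The signs of 3 of the 6 genes held through the alternatives plotted by setting. These reuse the same libraries, so a sign that holds is not further evidence. Agt was above 0 in all 18, with log2 fold changes of 0.062 to 0.19. Agtr1a was below 0 in all 18, from -0.42 to -0.13. Ren1 kept its sign in 15, Mme in 15 and Ace in 12 of the 18.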

How the data were processed

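The authors deposited whole-number read counts per gene with no normalization. The submitters' processing notes name FastQC, STAR and DESeq2 and the builds mm10 and GRCm38. For the counting program, strand setting and annotation release, nothing is given in the sources used here. Of the 7 mutant and 9 wild type kidneys in the titles (the series text has 9 and 7), the first table gave 3 Hes1 cKO and 4 control columns. Column names show the group only. The second table's 9 columns show no genotype and were not used.

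Low genes were removed with filterByExpr (minimum count 10) in edgeR 4.0.16 under R 4.3.3, and the rest were scaled by TMM and compared by edgeR's quasi-likelihood test with no covariate, with Benjamini-Hochberg adjustment over 15615 genes. CPM use the counts of kept genes at the TMM library size. Standard errors came from the F statistic, and 95% intervals from its t distribution. The scripts were tested on simulated data, where intervals held the true value for 95.4% of genes. Of the genes called there, 8.13% had not been changed, a share above the adjusted p threshold of 0.05. Exact two-sided permutation tests used log2(CPM + 1), and the smallest p of the 35 splits is 0.0286. The alternatives also used limma (version 3.58.1) and DESeq2 (version 1.42.0). Lengths and positions are from GENCODE M21 (GRCm38). Limits for a count of 0 cover counting error only. No 2 libraries of a group looked like repeats of one (chi-square divided by its degrees of freedom, 11.8 to 41.0).

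The members and lists were chosen with earlier results of these data known. Named are the 8 genes, Hes1, Atp6ap2, Anpep and Agtr2, called pathway genes and the 3 others with the largest change each way, Akr1b7, Rbpj, Nos1, Ptgs2, Gja5, defining markers given beside a member, and the 2 genes most like each tested gene. Some results this rule would name are not reported here. For further marker lists, edgeR called 0 of 4 tested genes for mesangium, 0 of 6 for endothelium and 0 of 4 for podocytes. It called 0 of 10 for adrenal cortex, 0 of 4 for adrenal medulla and 0 of 5 for sex genes. Of the 4 tested immune and mast cell genes it called 1, Kit, higher in Hes1 cKO (log2 fold change 1.08), where 0.339% of all tested genes were called. In the Hes1 cKO libraries Kit was at 42.3 to 46.2 CPM, and the mast cell gene Tpsb2 at 0.198 to 1.29 CPM. The 3 tested genes of that list besides Kit had log2 fold changes below 0, and none of them was called.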

Additional observations from a re-analysis of the deposited data

Results flagged for a closer look

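For Ace, control 1 lay far from the other controls, with 282 CPM where these had 144 to 162 CPM. The distance to its nearest neighbour made up 0.868 of the range of the 4 values, past the 95% critical value of Dixon's test. With the GC and length correction the ratio was 0.759, which does not pass it. Other sets passed only with that correction, among them Rnpep (0.894, before it 0.456) and Ptgs2 (0.844, before it 0.585). Of 21 sets of 4 uncorrected control values tested in this way 1 passed, and chance alone passes about 1 in 20.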

How the results depend on the processing

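No paired analysis was possible because the columns carry no replicate number of the labels. The GC and length correction, the fit without the 3 libraries highest in adrenal markers and the fit of the 4 low-Xist libraries were chosen after seeing the data.

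None of the 6 tested members and none of the renin cell and control genes was called in any of the 18 alternatives. Of the other pathway genes, DESeq2's Wald test called 1 (Klk1, log2 fold change -0.60, adjusted p 0.0432). Hes1 stayed called in all 18, from -1.80 to -1.35. The count of called genes was 53 (50 higher, 3 lower). By DESeq2 it was 130 (96 higher, 34 lower), and without a low-count filter 102 (78 higher, 24 lower). Without the 3 libraries highest in adrenal markers it was 220 (124 higher, 96 lower), and in the low-Xist libraries 23 (20 higher, 3 lower). When 1 library was left out it was 25 to 47, with 25 without Hes1 cKO 2 and 27 without Hes1 cKO 1. With the Xist covariate it was 66 and with the adrenal covariate 45. The cause was not tested.

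Signs that turned belong to genes that were not called. Akr1b7 was at -0.40 by limma-voom and -0.42 with the adrenal covariate, Ace at -9.1e-04 with the Xist covariate and Gja5 at -0.023 with the GC and length correction. Without the 3 libraries highest in adrenal markers, Mme was at -0.11, Lnpep -0.029, Akr1b7 -0.40, Rbpj -0.072, Nos1 -0.23 and Gja5 -0.014. In the low-Xist libraries Ren1 was at 0.21, Ace -0.12, Nln -0.069, Akr1b7 -2.60, Rbpj -0.033 and Ptgs2 0.27. When 1 library was left out, log2 fold changes ran from -0.59 to 0.14 for Ren1, -0.058 to 0.31 for Ace, -0.035 to 0.098 for Mme, -0.0088 to 0.19 for Lnpep, -0.037 to 0.10 for Nln, -1.88 to 1.36 for Akr1b7, -0.10 to 0.27 for Rbpj, -0.082 to 0.34 for Nos1, -0.32 to 0.10 for Ptgs2, -0.18 to 0.15 for Gja5 and -0.22 to 0.083 for Gja4. The cause was not tested. Levels per kb over the longest transcript in place of all exons were 31.8 for Mme, 45.5 for Enpep and 15.5 for Agtr1a, since that length is shorter.

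Depth limits Agtr1b, Mas1 and Agtr2, which had at most 21 counts in a library. Without the low-count filter Agtr1b gave a log2 difference of 0.70 (SE 0.94, edgeR adjusted p 0.894) and Mas1 -1.22 (SE 0.84, edgeR adjusted p 0.837).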
